A study of Homo sapiens and Mus musculus with 74 samples.

Results

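The replication-dependent histone genes encode the linker histone H1 and the core histones H2A, H2B, H3 and H4 that package newly made DNA. They were taken as every gene of GENCODE M21 whose symbol begins with Hist1h, Hist2h, Hist3h or Hist4h, each represented by the transcript that encodes its longest protein, which gave 70 of 55174 annotated genes with a transcript in the mouse count table. H1 had 6 of these genes, H2A 20, H2B 19, H3 12 and H4 13. The Hist1 cluster on chromosome 13 held 56 of them, the Hist2 cluster on chromosome 3 held 10, the Hist3 cluster on chromosome 11 held 3, and Hist4h4 lay alone on chromosome 6. The annotation listed 67 as protein coding and 3, Hist1h2aj, Hist1h2al and Hist3h2bb-ps, as pseudogenes.

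The study compared wild-type (WT, Rpl41+/+) mice with Rpl41 knockout (KO, Rpl41-/-) mice, in which CRISPR-Cas9 editing of C57BL/6J zygotes removed the whole coding sequence of Rpl41, a gene for a very small ribosomal protein. Kidney and brain of 10-week-old male mice were used for Ribo-seq, in which RNase-protected ribosome footprints (RPFs) are sequenced, and both tissues were also used for RNA-seq after poly(A) selection. Kidney was further used for disome-seq, which sequences the longer footprints of a pair of collided or closely stacked ribosomes. Each of the 10 groups had 3 libraries, and the labels do not state which libraries came from the same animal, so p-values measure the spread between these libraries. The mice lacked the gene in every cell from the zygote on, and the tissues were bulk, so that fewer cells of a type and less RNA per cell cannot be told apart.

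Most histone mRNAs of this family are the only mRNAs of animal cells that end without a poly(A) tail. Their precursor is cut just behind a conserved stem-loop, which is bound by the stem-loop binding protein Slbp, and the mRNA is made in S phase, when DNA is copied, and degraded afterwards. Some members also give rise to longer, polyadenylated transcripts that end downstream of the stem-loop, a form known from cells that have stopped dividing. Poly(A) selection and ribosome footprints can therefore report different things for these genes, and the values below are given for both.

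The stem-loop was searched as a 6-base arm GGNNCT, a 4-base loop NTNN and a 6-base arm AGNNCC, with the arms pairing, on the gene's own strand, within 200 bases after the stop codon. It was found in 60 of the 67 coding members (89.6%), at 21 to 58 bases from the stop codon (median 31), against 63 of 22471 genes searched in all (0.28%). The other 3 were H2afx, H2bfm and Nova2. It took 6 forms, printed with 5 bases on either side from GENCODE M21 and the GRCm38.p6 genome, because this element decides how the mRNA ends. The capitals mark the stem-loop, 1 member standing for each form.
Hist1h1c: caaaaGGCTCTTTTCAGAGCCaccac
Hist1h3e: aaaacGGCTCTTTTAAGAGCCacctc
Hist1h4h: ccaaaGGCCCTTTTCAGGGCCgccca
Hist1h4i: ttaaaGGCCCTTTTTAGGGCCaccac
Hist1h4b: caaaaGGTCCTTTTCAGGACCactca
Hist2h2ac: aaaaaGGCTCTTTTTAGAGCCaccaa

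The form of Hist1h1c, at chr13:23739512-23739527 on the plus strand, was shared by 38 members. That of Hist1h3e (chr13:23561903-23561918, minus strand) occurred in 9, that of Hist1h4h (chr13:23531458-23531473, plus) in 8, those of Hist1h4i (chr13:22040966-22040981, minus) and Hist1h4b (chr13:23757366-23757381, plus) in 2 each, and that of Hist2h2ac (chr3:96220418-96220433, minus) in 1. All 6 H1 genes had a match, as did 17 of 20 H2A, 14 of 19 H2B, 11 of 12 H3 and 12 of 13 H4 genes. The coding members without one were Hist1h2an, Hist1h2bp, Hist1h2bq, Hist1h2br, Hist2h2be, Hist1h3g and Hist1h4a, which says only that these letters are not in this window. Each stem-loop lay in the annotated exon or just behind the annotated end of the gene. The annotated transcript ran at least 100 bases past the stem-loop in 23 members, up to 4884 bases in Hist1h1d and 8246 bases in Hist1h2bc, counted along the genome with an intron included. It ended before the stem-loop or less than 100 bases past it in 37.

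The members resemble each other closely, and a footprint of about 28 bases often cannot be placed in 1 gene. There were 63 distinct coding sequences among the 70 members, and Hist1h2ao with Hist1h2ap, Hist2h2aa1 with Hist2h2aa2, Hist1h2bq with Hist1h2br, and Hist1h4m with Hist1h4n were identical pairs. The 28-base stretch of coding sequence found in the most members of each class is shown to make this sharing visible, read from the members' annotated coding sequences.
H1, in 5 of 6 members: acgatgtggagaagaacaacagccgcat
H2A, in 19 of 20 members: catccgcaacgacgaggagctcaacaag
H2B, in 18 of 19 members: cgcattacaacaagcgctcgaccatcac
H3, in 12 of 12 members: aagctgccgttccagcgcctggtgcgcg
H4, in 12 of 13 members: ggtgtgctgaaggtgttcctggagaacg

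Of all 28-base windows of a member's coding sequence, the median share found in no other gene was 81.53% in H1, 8.401% in H2A, 15.95% in H2B, 8.136% in H3 and 19.15% in H4. At least 50% of the windows were their own in 13 members: Hist1h1a to Hist1h1e, Hist1h1t, Hist4h4, Hist1h2aa, Hist2h4, Hist2h2be, Hist2h2ab, Hist1h2ba and Hist3h2bb-ps. The alignment allowed reads to match several places. Footprint values of the other members are shared values, a sum over a class can hold the same read more than once, and the deposited counts do not say which of the near-identical genes a footprint came from.

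Library totals were 44998381 to 123745890 counts for RNA-seq, 9498663 to 42452425 for Ribo-seq and 1187636 to 3018963 for disome-seq. Rpl41 itself, summed over 7 transcripts, had 505 to 891 CPM (counts scaled to the total of the library, in the usual per-million unit) in WT RNA-seq libraries against 0.381 to 1.19 in KO, and 16.7 to 22.0 CPM in WT Ribo-seq libraries against 0 to 0.674 in KO. The labelled tissues carried their markers, with 4026 to 4464 CPM over 8 kidney genes in kidney RNA against 0.758 to 1.19 in brain RNA, and 3646 to 4129 CPM over 8 brain genes in brain RNA against 3.56 to 7.47 in kidney RNA. Among KO kidney RNA libraries, replicates 2 and 3 stood apart, with 3295 and 3232 CPM of the nuclear RNA Malat1 against 602 to 2047 in the other kidney RNA libraries. Results that rest on them are also given with each of them left out in turn. No fit left out both. In WT brain RNA, replicate 2 was the highest for most members. Low counts limited what could be seen in kidney RNA: of the 70 members, 48 had at most 3 counts in every WT library and 31 had 0 in every one. The WT kidney RPF libraries held fewer counts in total (13573525 to 25882664 against 44998381 to 51256387 in RNA). There, 2 members were at or under 3 counts and 58 reached 10 counts in every library.

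In class sums of CPM, H4 led the footprints, and H2B led the poly(A) RNA of kidney. Summed over the 13 H4 genes, WT kidney RPF reached 322 ± 9.20 CPM (SD, n = 3) and WT brain RPF 329 ± 34.4, while poly(A) RNA of the same genes was 3.16 ± 0.426 CPM in kidney and 4.34 ± 2.23 in brain. H2B showed the other extreme, with 112 ± 7.09 CPM in kidney RPF against 76.7 ± 4.15 in kidney RNA. The ratio of RPF to RNA sums in kidney was thus 102 for H4, 15.0 for H2A, 12.2 for H3, 6.74 for H1 and 1.46 for H2B, and in brain it was 75.8 for H4, 22.7 for H3, 11.0 for H1, 3.88 for H2A and 3.52 for H2B. Over the whole family, RNA amounted to 128 ± 5.44 CPM in WT kidney and 83.1 ± 26.3 in WT brain, and RPF to 904 ± 40.9 and 811 ± 103 CPM. In Rpl41 KO mice the family sums were 182 ± 12.5 CPM for kidney RNA, 836 ± 74.3 for kidney RPF, 80.4 ± 11.7 for brain RNA and 683 ± 37.5 for brain RPF. These sums carry no test. A sum can hold the same read more than once, and the median share of own windows was 19.15% in H4 but 81.53% in H1. The order of the classes and their ratios are therefore a description.

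**Figure D1:**
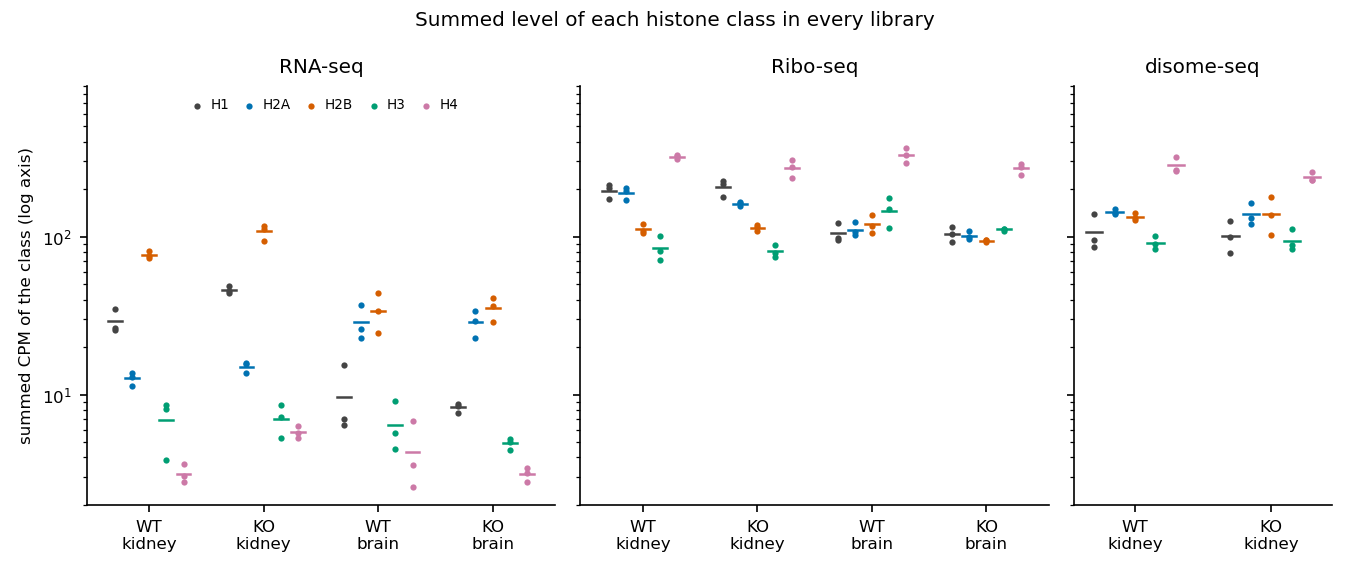
Summed CPM of each histone class (log axis) in every library of RNA-seq, Ribo-seq and disome-seq, by genotype and tissue. Each point is 1 library and each bar the mean of 3. H4 is the lowest class in kidney RNA (3.16 CPM in WT) and the highest in kidney RPF (322 CPM in WT). A sum can hold the same read more than once.

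The poly(A) RNA of each class in kidney came mostly from 1 gene. Hist1h2bc, a core H2B gene at chr13:23684199-23692908, made up 94.3% of WT kidney H2B RNA and 56.3% of the RNA of the whole family. Hist1h1c, which encodes the linker histone H1.2, made up 96.8% of H1 RNA, Hist3h2a 95.9% of H2A RNA and Hist2h3c1 70.4% of H3 RNA. Hist1h4i made up 53.4% of H4 RNA. All 5 have an annotated end at least 100 bases past the stem-loop. Footprints were spread more widely, since Hist1h1c, with 44.7% of H1 RPFs in WT kidney, carried 9.70% of all footprints on the family.

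Levels can be compared between genes per kb, here for the 2 highest genes of each class, averaged over libraries of both tissues and genotypes. Per kb of transcript, RNA over the 12 RNA-seq libraries was 44.6 CPM per kb for Hist1h2bc and 4.96 for Hist3h2ba, an H2B gene of the Hist3 cluster. It was 14.2 for Hist1h1c, 6.23 and 4.71 for the H2A genes Hist3h2a and Hist2h2aa2, 2.42 and 2.21 for the H4 genes Hist1h4h and Hist1h4i, and 2.04 and 1.90 for the H3 genes Hist2h3c1 and Hist2h3c2. These averages cover unlike tissues: WT means of Hist3h2ba and Hist2h2aa2 were 0.294 and 0 CPM per kb of transcript in kidney RNA and 9.17 and 9.26 in brain RNA. Per kb of coding sequence, footprints over the 12 Ribo-seq libraries were 118 CPM per kb for Hist1h4h and 106 for Hist1h4d, 96.9 for Hist1h1c and 70.2 for Hist1h1e, and 81.4 for Hist2h2aa2. Hist1h2bc reached 41.0 and Hist2h2bb 34.6 CPM per kb of coding sequence, and the H3 genes Hist1h3e and Hist1h3f 29.5 and 28.0. Hist1h1e, second among H1 genes by footprints, stood at 0.263 CPM per kb of transcript in RNA.

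Whether footprints and poly(A) RNA part was asked by comparing WT Ribo-seq with WT RNA-seq within a tissue, relative to the bulk of transcripts. The test was edgeR's quasi-likelihood F-test, with p-values adjusted by Benjamini-Hochberg across every transcript tested. The ratio is one of counts, without correction for length: footprints fall mostly on the coding sequence, RNA reads on the whole transcript. By this ratio, most members had far more footprints than poly(A) RNA, and a few had the reverse. In kidney, 65 of the 70 members passed the filter on low counts, of which 59 were higher in RPF (38.5% of all transcripts tested were) and 3 were lower (33.3% of all). Their median log2 ratio was 7.99 against 0.11 over all transcripts, and 6.63 with the 27 members at 0 in RNA set to their lower bound. With library totals in place of TMM scaling, the median of all transcripts moved to 0.49. Many of these members entered the test through their footprints alone and had to differ. Where each library of either assay had at least 10 counts, which left 11 members, 6 were higher and 3 lower, with a median of 1.41.

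The linker histone genes showed the range. Hist1h1c had 25.3, 25.9 and 33.2 CPM in the 3 WT kidney RNA libraries and 77.5, 88.2 and 97.3 CPM in kidney RPF, a log2 ratio of 1.27 (SE 0.16, adjusted p = 1.0e-04). Hist1h1e, which encodes H1.4, had 0.309, 0.273 and 0.800 CPM in RNA and 51.4, 60.4 and 62.5 in RPF. Hist1h1d, which encodes H1.3, had 0.206, 0.117 and 1.07 CPM in RNA and 35.7, 45.5 and 43.6 in RPF. The RPF libraries lay above the RNA libraries for all 3 genes, by a little for Hist1h1c and by 6.63 and 6.16 on the log2 scale for Hist1h1e and Hist1h1d. Hist1h1b, which encodes H1.5, had no count in any WT kidney RNA library and 5.76, 6.93 and 6.63 CPM in RPF, at least 103-fold higher against a floor of 3 counts per RNA library. Hist1h1a likewise had 0 counts in kidney RNA, with 1.78, 2.69 and 1.99 CPM in RPF. Of their 28-base windows, 0.817% of Hist1h1a, 4.673% of Hist1h1b, 30.71% of Hist1h1c, 36.16% of Hist1h1d and 31.59% of Hist1h1e occurred in another member, so part of the footprints of Hist1h1c, Hist1h1d and Hist1h1e is shared.

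Among the core histones with no RNA count in WT kidney, Hist2h2aa2 had 46.6, 39.9 and 50.2 CPM in RPF, at least 731-fold higher against the same floor. Hist1h4a, Hist1h4f, Hist1h4n and Hist1h4m were at least 411-fold, 337-fold, 298-fold and 286-fold higher, and Hist2h2ab, Hist1h2bg and Hist1h3e at least 261-fold, 208-fold and 152-fold. Of these genes only Hist2h2ab had mostly own windows (65.01%), so the footprint values of the others, Hist2h2aa2 included, are shared. Hist1h4d had 31.6, 32.8 and 31.1 CPM in RPF and 1, 0 and 0 counts in RNA. Genes with some RNA gave smaller ratios: Hist1h4h, with 1.09, 1.46 and 0.60 CPM in RNA and 45.0, 48.2 and 51.4 in RPF, had a log2 ratio of 5.11, Hist1h2be 4.2, Hist1h4i 2.88 and Hist1h2ac 2.13.

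Hist1h2bc went the other way, with 71.4, 68.8 and 76.6 CPM in kidney RNA against 22.9, 24.6 and 23.9 in RPF, and fell by 1.98 on the log2 scale in RPF relative to RNA (SE 0.13, adjusted p = 2.9e-06). Hist3h2a had 13.3, 12.7 and 10.5 CPM in RNA and 8.81, 8.48 and 9.80 in RPF (log2 ratio -0.82, SE 0.18, adjusted p = 0.0028). Hist2h2be, an H2B gene with no stem-loop match, had 3.24, 3.18 and 3.60 CPM in RNA and 2.28, 3.03 and 2.14 in RPF (-0.81, SE 0.23, adjusted p = 0.012). All 3 genes had every RNA library above every RPF library in CPM. Length enters these ratios: coding sequence made up 378 of 1156 bases of the Hist1h2bc transcript and 390 of 2146 of Hist3h2a. Per kb, over all 12 libraries of each assay, Hist1h2bc stood at 44.6 CPM in RNA and 41.0 in RPF. The part of length was not tested. Hist2h3c1 (-0.45), Hist2h3c2 (0.87) and Hist3h2ba (1.56) did not pass the test. With the replicate number as a block, Hist3h2ba passed (adjusted p = 0.027).

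**Figure D2:**
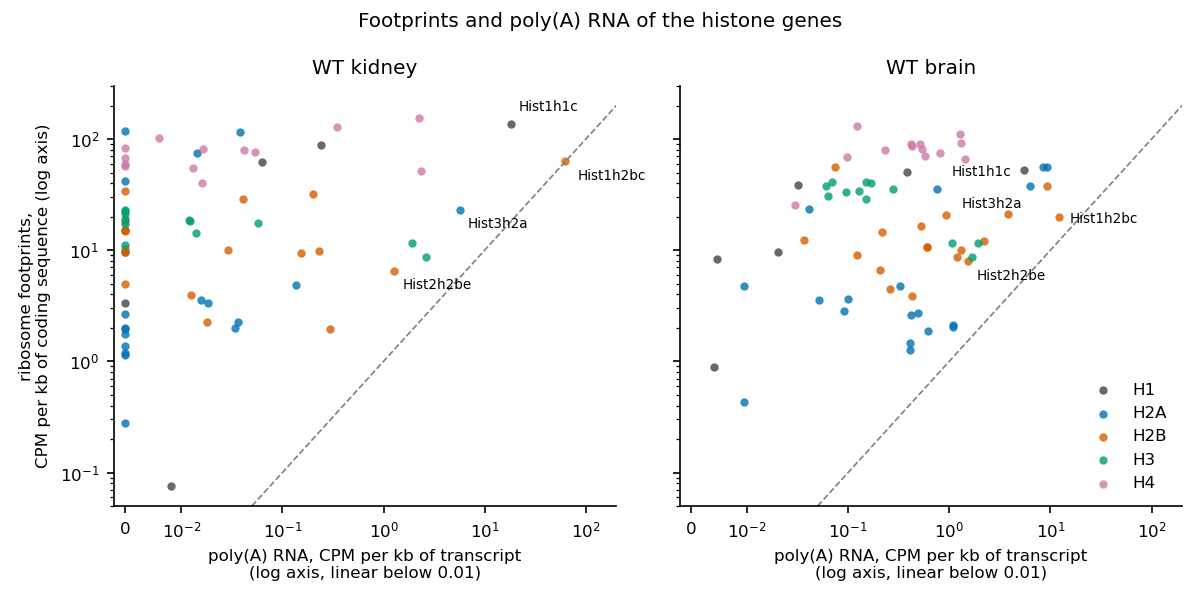
Mean ribosome footprints (CPM per kb of coding sequence, log axis) against mean poly(A) RNA (CPM per kb of transcript, log axis, linear below 0.01) of the 67 coding members in WT kidney and WT brain. Each point is 1 gene, coloured by class, and the dashed line marks equal values. In kidney a column of genes at 0 in RNA reaches far up the footprint axis, and Hist1h2bc lies farthest to the right.

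In kidney, members differed in RNA by where the annotation ends the transcript, measured along the genome. Of the 37 members whose annotated transcript ended near the stem-loop, 34 had at most 3 counts in every WT kidney RNA library, against 7 of the 23 whose transcript ran at least 100 bases past it and 7 of the 10 without a match. The highest level in the group ending near the stem-loop was 2.24 CPM per kb of transcript, and the highest in the group running past it was 62.5. In WT brain RNA the groups lay closer, with medians of 0.409 and 0.514 CPM per kb of transcript, highest levels of 9.26 and 12.3, and 4 of 37 and 1 of 23 members at or under 3 counts in every library. In kidney RPF the medians were 10.4 CPM per kb of coding sequence for members ending near the stem-loop and 32.2 for those running past it. These values carry no test. A longer transcript also offers more sequence for counting, and the part this played was not tested. Of the 13 members with mostly own windows, 10 of 11 tested were higher in RPF in kidney and 11 of 12 in brain.

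In WT brain, 69 members were tested, 62 were higher in RPF than in RNA (36.8% of all transcripts were) and 2 were lower (35.5% of all). The median log2 ratio was 4.58. Among the 35 members with at least 10 counts in every library, 29 were higher and 2 lower, with a median of 2.48. The 2 lower genes were again Hist1h2bc, with 14.6, 18.2 and 9.82 CPM in RNA and 7.81, 8.11 and 6.79 in RPF (log2 ratio -1.24, SE 0.24, adjusted p = 5.3e-04), and Hist2h2be, with 3.81, 5.71 and 2.56 CPM in RNA and 2.60, 3.47 and 2.96 in RPF (-0.77, SE 0.31, adjusted p = 0.041). The libraries of Hist2h2be overlapped between the assays, those of Hist1h2bc did not. Hist3h2a (-0.19), Hist2h3c1 (0.22), Hist1h2ao, Hist1h2ap and Hist1h2ac did not pass. At the other end stood genes with nearly no brain RNA: Hist1h1a had 0, 1 and 0 counts in RNA and 4.43, 5.69 and 6.01 CPM in RPF, Hist1h1b had 0, 0 and 4 counts and 5.88, 7.37 and 6.15 CPM, and Hist2h2bb had 2, 5 and 1 counts and 20.4, 25.1 and 18.0 CPM. Other large ratios were those of Hist2h2ab (8.51), Hist1h2ak (7.99), Hist1h3c (7.90), Hist1h4d (7.82), Hist1h3e (7.81), Hist1h4f (7.75) and Hist1h3i (7.73).

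The same comparison in the Rpl41 KO libraries, a separate set, called 56 of the 59 kidney members and 60 of the 62 brain members higher in RPF again, and Hist1h2bc and Hist2h2be lower again in both tissues. Members that entered it through their footprints alone had to differ again. In kidney RNA, 49 of 70 members had at most 3 counts in every KO library. Replacement histones, which are mostly polyadenylated and made outside S phase, leaned to RNA by the same ratio of counts. It is not corrected for length, and the part of length was not tested. The 11 listed genes included H2afx, which has a stem-loop match. In WT kidney, 1 (H2afz) was higher in RPF (38.5% of all transcripts were) and 7 were lower (33.3% of all), with a median of -0.79. In WT brain, 0 were higher (36.8% of all) and 9 lower (35.5% of all), with a median of -0.97.

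Kidney and brain differed strongly in which histone genes gave poly(A) RNA. In WT RNA-seq, 35 of the 70 members passed the filter, of which 2 were higher in kidney (28.3% of all transcripts tested were) and 23 were higher in brain (35.8% of all). The members' median log2 difference, kidney minus brain, was -3.93, and -3.01 with the 11 members at 0 in kidney set to their bound, against -0.20 over all transcripts and -0.45 over all with library totals. Many passed through brain alone, where the RNA libraries were also deeper (89451226 to 94877175 counts against 44998381 to 51256387 in kidney). With at least 10 counts required in every library, 11 members were left, of which 2 were higher in kidney and 1 in brain.

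Both genes higher in kidney were those that led its RNA. Hist1h2bc had 71.4, 68.8 and 76.6 CPM in kidney against 14.6, 18.2 and 9.82 in brain (log2 difference 2.57, SE 0.26, adjusted p = 1.0e-05). Hist1h1c had 25.3, 25.9 and 33.2 CPM against 6.35, 13.8 and 5.68 (1.93, SE 0.33, adjusted p = 5.2e-04). Every kidney library was above every brain library for each of them. In the other direction, Hist2h2aa2 had 0 counts in kidney RNA and 3.99, 6.43 and 4.25 CPM in brain, at least 78.4-fold lower in kidney against the floor of 3 counts. Its twin Hist2h2aa1 had 0, 0 and 3 counts in kidney and 367, 615 and 382 in brain. Further genes at 0 in kidney were Hist1h2bg (at least 37.7-fold lower), Hist1h2bq and Hist1h2br (12.1-fold each), Hist1h2bj (8.76-fold), Hist1h2ao and Hist1h2ap (8.44-fold), Hist2h3b (8.38-fold) and Hist1h2ba (8.07-fold). Hist3h2ba, from the Hist3 cluster, had 0.0825, 0.371 and 0.0889 CPM in kidney against 5.96, 6.35 and 4.58 in brain (log2 difference -4.67, SE 0.51, adjusted p = 2.1e-05).

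By class, the members higher in brain RNA were 7 of 9 tested in H2A and 10 of 12 in H2B. They were 2 of 4 in H3, 4 of 7 in H4 and 0 of 3 in H1, against 35.8% of all transcripts. Among the 35 members tested, 11 had no count in any WT kidney RNA library. Members let in by their brain counts alone could only come out higher in brain, so these class counts are a description. With the replicate number as a block, Hist1h4h (adjusted p = 0.016), Hist1h4i (adjusted p = 0.037) and Hist2h3c1 (adjusted p = 0.0058) also passed as higher in kidney. Some other RNAs without a long poly(A) tail were likewise lower in kidney RNA libraries: over both genotypes, annotated snRNA genes summed to 9.76 to 26.3 CPM in kidney RNA against 110 to 137 in brain RNA, and the snRNA Rn7sk stood at 0.454 to 1.75 against 2.01 to 3.22 CPM. Malat1 went the other way, with 602 to 3295 CPM in kidney RNA against 266 to 561 in brain RNA. The mitochondrial rRNA mt-Rnr2, with 2386 to 8942 against 2316 to 4055 CPM, was not lower in kidney either. The part of these RNAs in the difference was not tested. Proliferation genes ran the opposite way, with 16 of 22 tested S-phase genes higher in kidney RNA (28.3% of all transcripts were) and 3 higher in brain (35.8% of all).

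Footprints divided the family more evenly. In WT Ribo-seq, 67 members were tested, 18 were higher in kidney (35.0% of all transcripts were) and 18 were higher in brain (35.8% of all), shares below the background in both directions. H3 had 0 higher in kidney and 9 higher in brain of 12 tested, H1 had 3 and 1 of 5, H2A 5 and 2 of 18, H2B 7 and 4 of 19, and H4 3 and 2 of 13. No test compared the classes. In class sums, H1 footprints were 196 ± 21.1 CPM in kidney and 105 ± 14.3 in brain (ratio 1.86), H2A 190 ± 16.7 and 111 ± 11.0 (1.71), and H3 84.2 ± 15.0 and 146 ± 30.4, 1.74 times higher in brain.

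Hist1h2bc and Hist1h1c were higher in kidney by footprints too. Hist1h2bc had 22.9, 24.6 and 23.9 CPM in kidney against 7.81, 8.11 and 6.79 in brain (log2 difference 1.75, SE 0.13, adjusted p = 3.0e-08), and Hist1h1c had 77.5, 88.2 and 97.3 against 30.7, 40.2 and 30.1 CPM (1.48, SE 0.16, adjusted p = 1.1e-06). Hist2h2aa2, without RNA counts in kidney, had 46.6, 39.9 and 50.2 CPM of footprints there against 20.1, 25.8 and 20.1 in brain (1.15). RNA and footprints counted for it thus differed between the tissues in opposite directions. Its coding sequence is identical to that of Hist2h2aa1, so these footprints are shared values. Other genes higher in kidney were Hist1h2al (1.19), Hist2h2ac (1.18), Hist2h2aa1 (1.15), Hist1h2bj (0.95), Hist2h2ab (0.92), Hist1h2bh (0.92) and Hist1h1e (0.90).

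The 2 genes with the largest difference toward brain lie side by side in the Hist3 cluster. Hist3h2ba had 0.541, 1.21 and 0.442 CPM of footprints in kidney against 14.2, 14.1 and 14.7 in brain (log2 difference -4.25, SE 0.25, adjusted p = 2.1e-09), and Hist3h2bb-ps, annotated as a pseudogene, had 0.657, 0.942 and 0.516 against 12.3, 11.8 and 12.0 CPM (-4.01, SE 0.21, adjusted p = 5.7e-10). No kidney library came near a brain library for either gene. Hist2h2bb, also H2B, had 6.30, 8.14 and 6.34 CPM against 20.4, 25.1 and 18.0 (-1.52, SE 0.16, adjusted p = 1.3e-06). Hist1h1a had 1.78, 2.69 and 1.99 CPM in kidney and 4.43, 5.69 and 6.01 in brain (-1.25), and was the H1 gene higher in brain. Hist1h2ak (-1.36) and the H3 genes Hist1h3i (-1.03), Hist1h3d (-0.94), Hist1h3g (-0.92), Hist1h3h (-0.84) and Hist1h3b (-0.77) followed. The H3 genes share most of their windows, so their footprint values are not independent of each other.

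**Figure D3:**
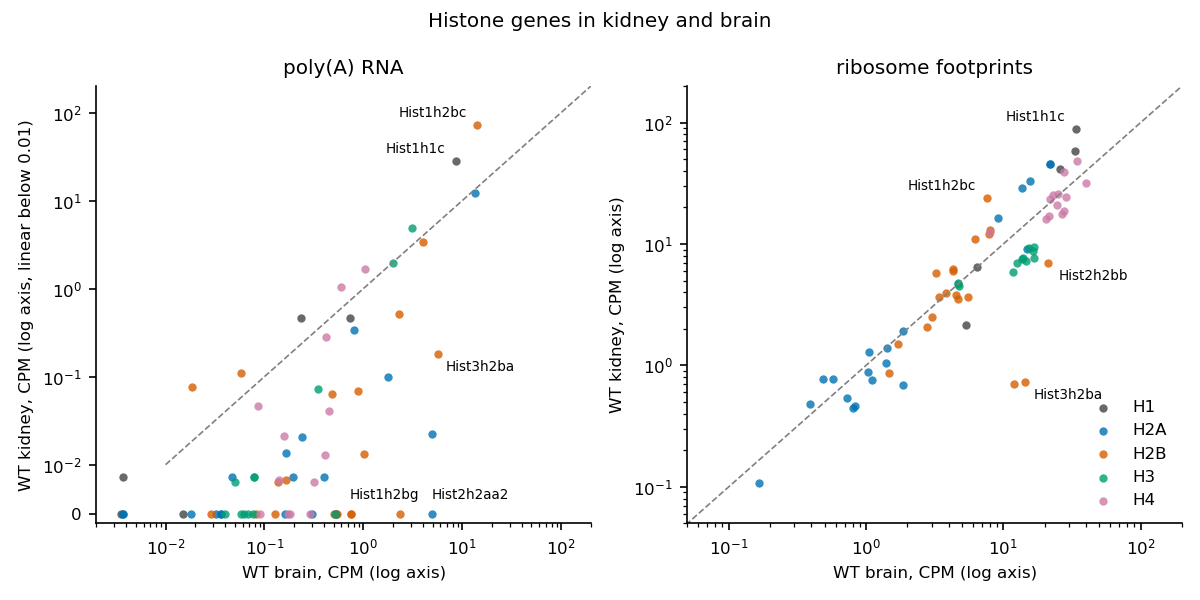
Mean CPM of each member in WT kidney against WT brain (log axes, linear below 0.01 for kidney RNA), for poly(A) RNA on the left and ribosome footprints on the right, coloured by class, with the dashed line at equal values. RNA of many genes lies near 0 in kidney only, whereas footprints lie around the line except for Hist3h2ba and Hist3h2bb-ps, near 14 and 12 CPM in brain.

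In the Rpl41 KO libraries the tissue comparison of RNA called again both genes higher in kidney and 22 of the 23 higher in brain, and that of RPF called again all 18 higher in kidney and 14 of the 18 higher in brain. Kidney RNA was low there too, with at most 3 counts in every KO library for 49 of 70 members. The repeated RNA calls toward brain are therefore a description. For Hist1h2bn the RPF difference of -0.46 in WT was 0.0086 in KO.

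The difference between the tissues in the ratio of footprints to RNA was tested as an interaction of tissue and assay in WT libraries. Of 68 members tested, 35 had a higher RPF to RNA ratio in kidney (12.7% of all transcripts did) and 1 a lower one (7.13% of all), with a median difference of 3.41 on the log2 scale. Most members entered this test through their footprints or their brain RNA, since 48 of 70 had at most 3 counts in every WT kidney RNA library, so the count of 35 is a description. Among the 11 members with at least 10 counts in every library, 2 passed. The genes with ample RNA in both tissues did not pass: Hist1h1c differed by -0.36 (adjusted p = 0.57) and Hist1h2bc by -0.74 (adjusted p = 0.099). With the replicate number as a block, Hist1h2bc (-0.82, adjusted p = 0.028) and Hist1h4i (-1.17, adjusted p = 0.025) passed as lower. Under the same block, Hist1h2ah (adjusted p = 0.052), Hist1h2bl (0.063), Hist1h2bm (0.061), Hist1h4d (0.059) and Hist1h2bb (0.071) no longer passed. Hist1h1e had a difference of 1.47 (adjusted p = 0.048). The 1 lower gene, Hist1h2bb, had 3, 3 and 5 counts in kidney RNA and 0, 1 and 4 in brain RNA, with 92, 58 and 43 counts in kidney RPF and 92, 53 and 90 in brain RPF (difference -2.40, adjusted p = 0.035), and in the KO libraries its difference was 1.74. There, 31 of the 35 higher ratios were called again, but that of Hist1h4d, 3.51 in WT on 1, 0 and 0 counts in kidney RNA and 6, 28 and 5 in brain RNA, was -1.27.

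The genotype comparisons ask whether loss of Rpl41 changed the histone genes. By edgeR's quasi-likelihood test, no member passed in any of the 10 comparisons of Rpl41 KO with WT mice. In kidney RNA, 0 of 14 members tested were called (0.00992% of all transcripts were) and 4 had an unadjusted p under 0.05, all higher in KO (16.8% of all in either direction, 9.24% of all higher in KO). In brain RNA it was 0 of 45 called (0.0134% of all) and 0 with an unadjusted p under 0.05 (3.46% of all). In kidney RPF it was 0 of 67 (7.76% of all) and 3, all lower in KO (25.3% of all), in brain RPF 0 of 69 (0.0345% of all) and 20, all lower in KO (12.6% of all in either direction, 5.94% of all lower), and in kidney disomes 0 of 46 (0.201% of all) and 0 (10.8% of all). DESeq2 called 2 members in kidney RNA, Hist1h1c and Hist1h2bc, and 0 in the other 4 comparisons of levels.

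In kidney RNA, the 4 members with an unadjusted p under 0.05 were those whose 3 KO libraries lay above all 3 WT libraries (6.36% of all transcripts tested did so). Hist1h1c had 25.3, 25.9 and 33.2 CPM in WT and 47.7, 42.4 and 41.9 in KO (log2 difference 0.81, SE 0.14, adjusted p = 0.29). Hist1h2bc had 71.4, 68.8 and 76.6 in WT and 90.6, 113 and 109 in KO (0.70, SE 0.16, adjusted p = 0.29). The H4 genes were Hist1h4h, with 1.09, 1.46 and 0.60 CPM in WT and 2.51, 2.06 and 2.39 in KO (1.28, SE 0.38, adjusted p = 0.29), and Hist1h4i, with 2.04, 1.29 and 1.73 in WT and 2.80, 2.66 and 3.38 in KO (0.97, SE 0.28, adjusted p = 0.29). DESeq2 gave adjusted p-values of 0.0049 for Hist1h1c, 0.046 for Hist1h2bc, 0.071 for Hist1h4h and 0.078 for Hist1h4i. The median over the 14 members was 0.58 against -0.03 over all transcripts, and 0.41 against -0.19 with library totals.

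KO kidney RNA replicates 2 and 3, which stood apart in Malat1, bore on this comparison. Without KO replicate 1, which left only those 2, edgeR called 5344 transcripts higher and 7122 lower in KO of 73294 tested, and 3 members, Hist1h1c (adjusted p = 0.018), Hist1h2bc (adjusted p = 0.013) and Hist1h4i (adjusted p = 0.049), against 7 transcripts with all libraries. Without KO replicate 2 or without KO replicate 3 no member was called, and the members' median was 0.48 and 0.58. Other RNAs moved in the same libraries: annotated snRNA genes summed to 13.6, 26.3 and 21.2 CPM in KO kidney RNA against 10.8, 12.7 and 9.76 in WT, and the mitochondrial rRNA mt-Rnr2 had 8942 and 8824 CPM in KO replicates 2 and 3 against 2386 to 5302 in the other kidney RNA libraries. Their part in the result was not tested. KO replicate 1, the library that did not stand apart in Malat1, had the highest Hist1h1c value of all kidney RNA libraries, and its Hist1h2bc, Hist1h4h and Hist1h4i values were above every WT library. Its snRNA sum of 13.6 CPM was above every WT library as well. It is 1 library, and what set its values was not tested.

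Brain footprints of 3 classes lay lower in KO than in WT, by little. All 19 H2B genes (median log2 difference -0.32), all 12 H3 genes (-0.36) and all 13 H4 genes (-0.26) had values below 0, whereas 12 of 19 H2A genes (-0.09) and 1 of 6 H1 genes (0.03; 3 of 6 with library totals) did. The median over the 69 members was -0.23 against -0.01 over all transcripts, -0.24 by DESeq2 and -0.26 with library totals. In CPM, every KO library was below every WT library for 23 of 69 members, against 10.4% of all transcripts. Class sums were 120 ± 15.3 CPM in WT and 94.4 ± 1.69 in KO for H2B, 146 ± 30.4 and 111 ± 1.53 for H3, 329 ± 34.4 and 272 ± 22.3 for H4, 111 ± 11.0 and 102 ± 6.34 for H2A, and 105 ± 14.3 and 104 ± 11.2 for H1. In brain RNA, where no member was called, class medians were -0.46 in H4 (9 of 10 tested below 0) and -0.35 in H3 (4 of 4). They were -0.29 in H1 (3 of 3), 0.12 in H2A (3 of 13) and 0.18 in H2B (4 of 15).

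The single genes did not pass the test. Hist1h2bh had 6.22, 7.05 and 5.42 CPM in WT brain RPF and 4.38, 4.46 and 4.13 in KO (log2 difference -0.48, SE 0.15, adjusted p = 0.25). Hist1h3e had 17.1, 19.5 and 13.8 CPM in WT and 12.2, 12.7 and 12.0 in KO (-0.41, SE 0.14, adjusted p = 0.27). The groups did not overlap for either gene. The lowest adjusted p of any member was 0.24. Because H2B, H3 and H4 genes share most of their windows, the members of a class are largely the same reads, and the 12 tested members with mostly own windows had 5 values above and 7 below 0 (median -0.08), against 7 and 50 of the 57 others (median -0.25).

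WT brain RPF replicate 2, the shallowest Ribo-seq library with 9498663 counts, carried part of this. Without it, 17 of 19 H2B genes, 9 of 12 H3 genes and 13 of 13 H4 genes were below 0, with medians of -0.24, -0.23 and -0.16, and 3 of the H2A, H2B, H3 and H4 genes together had an unadjusted p under 0.05. H1 changed sign with the library left out, from 1 of 6 genes above 0 without WT replicate 1 to 6 of 6 without WT replicate 2. Other values moved with genotype in the same libraries. Erythroid genes summed to 646 to 1794 CPM in WT brain RPF and 340 to 441 in KO (0 of 5 tested members called, all below 0), and the S-phase genes summed to 69.8 to 70.3 CPM in WT and 80.5 to 86.4 in KO (0 called). Their part in the histone values was not tested.

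In kidney footprints, 17 of 19 H2B genes (median 0.11; 13 of 19 with library totals) and 5 of 5 H1 genes (0.16) were above 0, 13 of 18 H2A genes (-0.15) and 13 of 13 H4 genes (-0.14) were below, and 7 of 12 H3 genes were above 0 (3 of 12 with library totals). The lowest adjusted p was that of Hist1h4h, with 45.0, 48.2 and 51.4 CPM in WT and 40.1, 36.9 and 31.6 in KO (log2 difference -0.34, adjusted p = 0.11), whose groups did not overlap. In CPM, every KO library was below every WT library for 9 of 67 members, and for 14674 of all 75266 transcripts tested. The tissue by genotype interaction on RPF called 0 of 69 members (0.0801% of all transcripts), with 7 at an unadjusted p under 0.05 (7.69% of all), and DESeq2 called 0. Its values, kidney minus brain, were above 0 for 19 of 19 H2B, 12 of 12 H3 and 6 of 6 H1 genes. They were also above 0 for 12 of 13 H4 and 7 of 19 H2A genes. The median over all transcripts tested was 0.0012, and the lowest adjusted p of a member was 0.44 (Hist1h2bh, 0.54). On RNA the interaction called 0 of 44 members (0.00108% of all), with 4 at an unadjusted p under 0.05 (8.13% of all), and DESeq2 called 0.

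**Figure D4:**
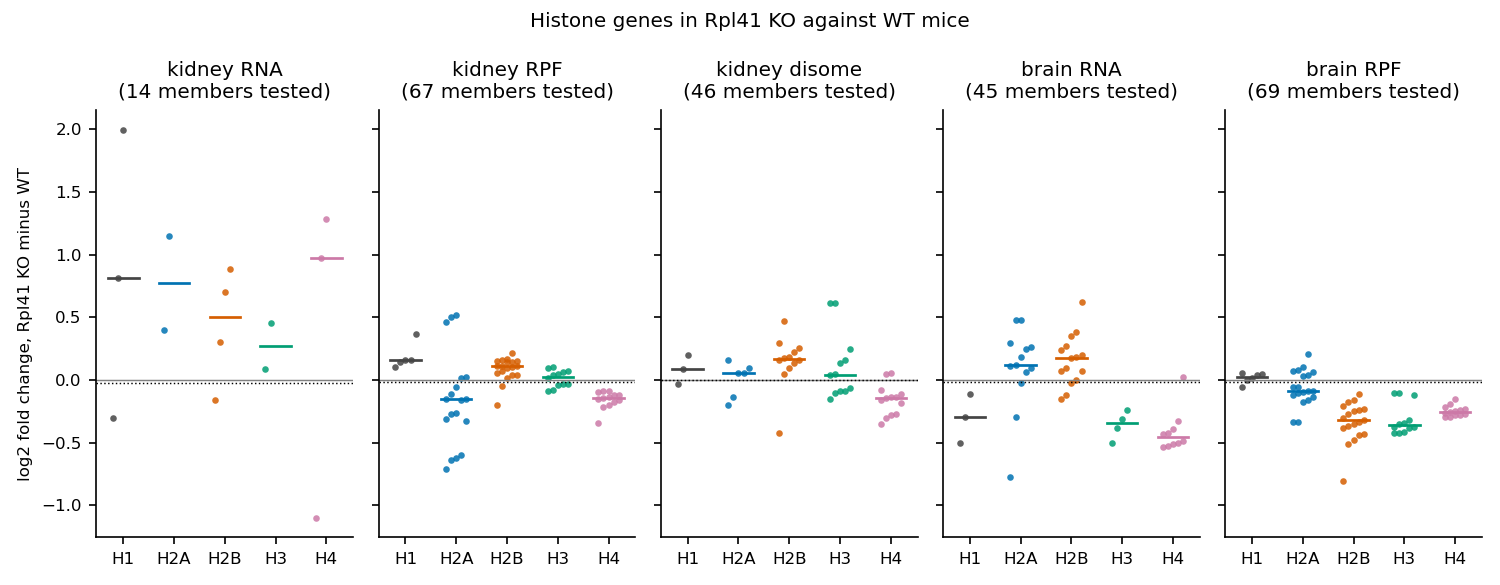
Log2 fold change, Rpl41 KO minus WT, of the members tested in kidney RNA, kidney RPF, kidney disomes, brain RNA and brain RPF, by class. Points are genes, bars the class medians and the dotted line the median of all transcripts tested. Brain RPF values of H2B, H3 and H4 lie below 0 (medians -0.32, -0.36 and -0.26), and no point passed the test.

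Translation efficiency (TE, RPF relative to RNA) was compared between the genotypes as an interaction of assay and genotype. In kidney, 0 of 68 members were called (0% of all transcripts), with 10 at an unadjusted p under 0.05 (19.4% of all), 9 of them lower in KO. Hist1h4d (-3.97, adjusted p = 0.099, on 1, 0 and 0 RNA counts in WT and 4, 6 and 9 in KO), Hist1h4h (-1.61, adjusted p = 0.11) and Hist1h4i (-1.04, adjusted p = 0.12) had the lowest adjusted p-values, and DESeq2 called these 3. Hist1h1c was at -0.64 and Hist1h2bc at -0.58. In brain, 0 of 70 were called (0% of all), with 1 at an unadjusted p under 0.05, Hist1h2bb (-1.96; 4.85% of all), and DESeq2 called 0. TE of the replacement histones had values below 0 for 11 of 11 genes in both tissues (medians -0.47 in kidney and -0.38 in brain, 0 called).

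Disomes on histone mRNAs differed by gene. Against RPF in WT kidney, 56 of the 70 members were tested, 4 were higher in disomes (25.3% of all transcripts were) and 11 were lower (25.3% of all), so the family as a whole was below the background in both directions. The 4 higher were all H2B: Hist1h2bn, with 3.71, 3.77 and 3.54 CPM in RPF and 7.63, 6.96 and 9.60 in disomes (log2 ratio 1.18), Hist1h2bf (1.07), Hist1h2be (0.74) and Hist1h2bg (0.73). None of these 4 had mostly own windows, so their values are shared and not independent of each other. Only Hist1h2ba, with 5, 5 and 2 disome counts, was lower among the 17 H2B genes tested (-1.14).

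The H1 genes were on the other side, 3 of 5 tested being lower and none higher. Hist1h1b had 149, 103 and 90 counts in RPF and 1, 0 and 2 in disomes (log2 ratio -3.81, SE 0.57, adjusted p = 3.7e-05). Hist1h1d had 35.7, 45.5 and 43.6 CPM in RPF and 8.62, 11.3 and 20.8 in disomes (-1.65, SE 0.24, adjusted p = 2.7e-05), and Hist1h1c 77.5, 88.2 and 97.3 CPM against 41.8, 41.4 and 63.2 (-0.77). Disome libraries lay below every RPF library for all 3. Hist1h1e passed as lower with the replicate number as a block (-0.39, adjusted p = 0.0058), and Hist2h3b, Hist2h3c1 and Hist2h3c2 then passed as higher (0.69, 0.68 and 0.67). H4 had 5 of 13 lower, Hist1h4i (-0.90), Hist2h4 (-0.78), Hist1h4m (-0.67), Hist1h4n (-0.65) and Hist1h4d (-0.50), H2A had Hist2h2ac (-0.81) and Hist2h2ab (-0.65) of 9 lower, and H3 had 0 of 12 called. Among the 10 tested members with mostly own windows, 6 were lower and 0 higher. In the KO libraries, 3 of the 4 higher and 7 of the 11 lower members were called again. Relative to RPF, the disome change with genotype called 0 of 56 members (0% of all transcripts), with 0 at an unadjusted p under 0.05 (5.91% of all), and DESeq2 called 0. With at most 3018963 counts per library, no member reached 100 counts in every WT disome library.

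**Figure D5:**
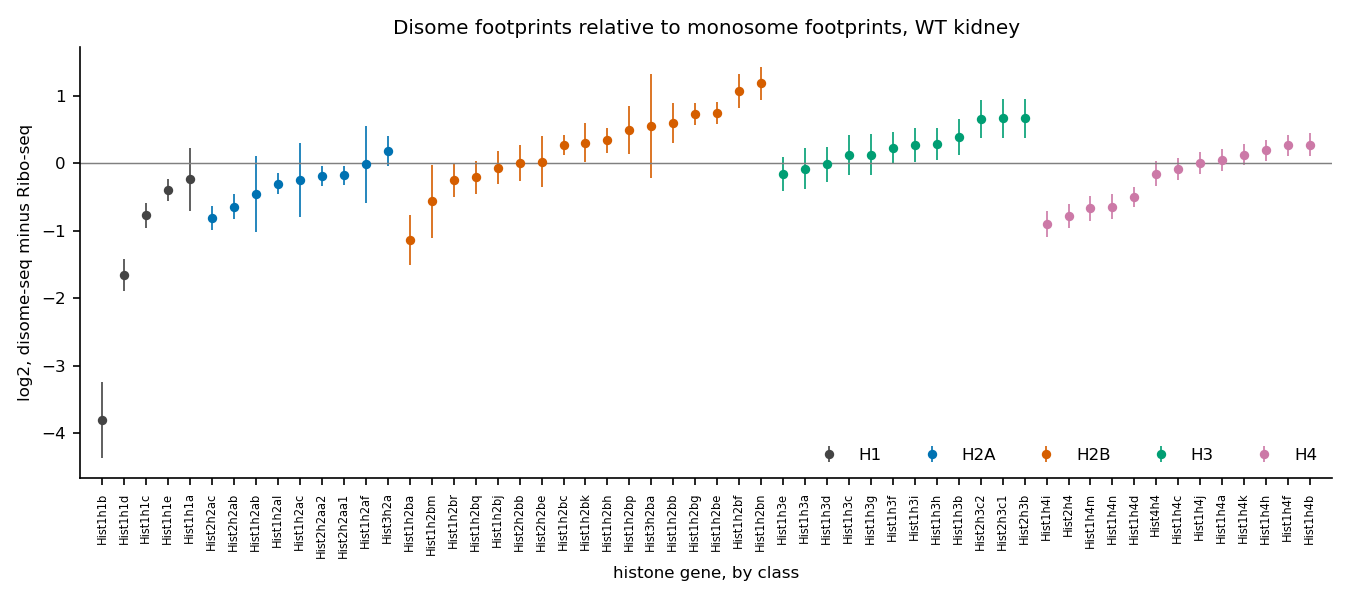
Log2 ratio of disome-seq to Ribo-seq in WT kidney for the 56 members tested, by class, with standard errors as bars. Hist1h1b lies lowest at -3.81 and Hist1h2bn highest at 1.18.

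Hist1h1t and Hist1h2aa, known from testis, were near 0, with 0 to 19 and 0 to 7 counts in any library. Hist1h2ba, also known from testis, had 0, 0 and 0 counts in WT kidney RNA but 51, 63 and 26 in WT brain RNA, and 98, 67 and 48 counts in WT kidney RPF and 59, 59 and 54 in WT brain RPF. Its own-window share was 55.08%, so part of these footprints can belong to other H2B genes.

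Genes that process histone mRNA were called in both directions between the tissues, at shares below those of all transcripts. Of 18 processing genes tested, 4 were higher in kidney RNA than in brain RNA (28.3% of all transcripts were) and 5 lower (35.8% of all). By RPF, 5 of 17 were higher (35.0% of all) and 5 lower (35.8% of all). Slbp RNA was lower in kidney (log2 difference -1.10, adjusted p = 0.0066), while its footprints did not differ past the threshold (-0.05, adjusted p = 0.80). Lsm11 (-2.19) and Lsm10 (1.5), both parts of the U7 particle that cuts histone pre-mRNA, went opposite ways in RNA. Histone chaperones, which carry histones to and from DNA, were higher in kidney RNA for 7 of 15 genes (28.3% of all transcripts) and lower for 1 (35.8% of all). In kidney RPF, KO against WT, 1 of 17 processing genes and 1 of 15 chaperones were higher and 1 of each was lower, and 2 of 22 S-phase genes were higher (7.76% of all transcripts were called), while no gene of these lists was called in brain in either assay.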

How the data were processed

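The authors deposited whole-number read counts per mouse transcript for 30 libraries, 3 in each of 10 groups. Reads were trimmed with cutadapt, quality-filtered with the FASTX Toolkit, freed of rRNA and aligned with STAR to GRCm38.p6, with multimapping reads allowed; the paper names featureCounts for human transcripts, and how multimapping reads or strand entered the mouse counts is not given in the sources used here. Of 142604 transcripts, 141374 matched GENCODE M21. Another 28 columns of values, in the human table, could not be tied to human samples by their names and were not used; HEK293T data were not analysed here.

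Counts were tested with edgeR 4.0.16 in R 4.3.3 (filterByExpr, TMM, quasi-likelihood F-test, 2-sided, Benjamini-Hochberg over all transcripts tested, threshold 0.05); interactions gave TE and tissue differences. CPM used library totals, and folds against groups at 0 used a floor of 3 counts per library. Floors cover counting error only. Alternatives were DESeq2 1.42.0, library totals, no filter, at least 10 counts in every library, 1 transcript per gene, counts summed per gene, a replicate block, leaving out each library, and KO libraries in place of WT. The fitting was tested on simulated data.

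The members and the gene lists (histone mRNA processing, replacement histones, S phase, chaperones, and kidney, brain, leukocyte and erythroid markers) were chosen with earlier results of these data known. Named members were up to 10 of the largest called rises and falls per comparison, the 2 highest of each class per kb in RNA and in RPF, the testis members and Hist1h1a to Hist1h1e; members named in the KO comparisons, where none passed, were chosen after their values were seen. Leukocyte markers summed to 14.2 to 19.9 CPM in kidney RNA and 7.87 to 10.1 in brain RNA. Of 30 pairs of libraries within a group, 0 were identical, and the lowest chi-square per degree of freedom was 1.62. Replicate numbers are shared between groups in the labels. Deviations of same-numbered libraries were correlated over 0.1 in every pair for 4 of 12 sets (KO with WT kidney disomes, and in WT kidney RPF with RNA, kidney with brain RNA, and disomes with RPF), so there the paired result is given where it changed a call.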

Additional observations from a re-analysis of the deposited data

How the results depend on the processing

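Of 250 alternative counts of called members, 238 stayed within 1.5 times the reported count. DESeq2 called 2 members in kidney RNA and 3 in kidney TE, KO against WT, where edgeR called 0. Library totals called 1 in kidney RPF (Hist1h4h), and 1 transcript per gene 2 in kidney TE. For kidney against brain RNA in WT, no filter gave 42 calls instead of 25, with more transcripts tested, and at least 10 counts in every library gave 3. That filter, which leaves fewer members, gave 9 calls for kidney RPF against RNA (62 reported), 31 for brain (64 reported) and 2 for tissue by assay (36 reported). Leaving out each library in turn gave 0 to 3 calls in kidney RNA and 0 to 5 in kidney TE, KO against WT. The 3 RNA calls came without KO replicate 1. The 5 TE calls (Hist1h1d, Hist1h2bc, Hist1h4d, Hist1h4h and Hist1h4i) came without KO kidney RNA replicate 1, and Hist1h4h alone was called without WT kidney RNA replicate 2. The cause was not tested. With the replicate number as a block, 0 members were called in each genotype comparison, and 28, 36, 63, 64, 19 and 33 in kidney against brain RNA and RPF, RPF against RNA in kidney and brain, disome against RPF, and tissue by assay. Beside the changes given with the results, the block called Hist1h2ac higher in brain RPF than RNA (adjusted p = 0.015) and lost Hist1h2ag there (adjusted p = 0.053), and it changed no other member's call. Of 3384 values of called members under alternatives, 3250 kept their direction and call, 131 lost the call and 3 reversed, all with KO libraries in place of WT: Hist1h2bn in kidney against brain RPF (0.0086), and Hist1h2bb (1.74) and Hist1h4d (-1.27) in tissue by assay. Low counts limited kidney RNA, where 48 of 70 members had at most 3 counts in every WT library, and disome-seq.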
